A study of Mus musculus with 2 samples.

Results

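The genes described here are 7 mouse genes of cellular iron storage, uptake and control: Fth1, Ftl1, Tfrc, Hmox1, Ireb2, Aco1 and Ncoa4. They were chosen by symbol, and all 7 had a row among the 20034 genes of the count table. The study profiled single wild type mouse induced macrophages (iMac), made from fibroblasts by c-Myc alone, per its title. Cells were lifted with EDTA and run on the DNBelab C4 droplet system, and the 2 samples in the labels are its cDNA and oligo libraries. The barcode names of the single matrix analysed here carry no library name, and it counts as a single sample with no replicate. Which promoter drives c-Myc, and whether the cells came from 1 culture or several, is not given in the sources used here. All intervals below are 95% and cover counting error only, and no difference between cells has a replicate check.

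Ferritin is a shell of heavy chains (Fth1), which oxidise iron, and light chains (Ftl1), which help to mineralise it. Transferrin receptor 1 (Tfrc) brings transferrin-bound iron into the cell, heme oxygenase 1 (Hmox1) frees iron from heme, and Ncoa4 delivers ferritin to the lysosome for breakdown. The iron regulatory proteins, encoded by Aco1 (which doubles as the cytosolic aconitase) and Ireb2, bind hairpins called iron-responsive elements (IREs) when iron is scarce. Binding near the 5′ end of ferritin messages blocks their translation, whereas binding in the 3′ untranslated region (UTR) of Tfrc protects that message from decay. Macrophages are known for recycling heme iron from red cells. In B cell work, MYC has been reported to repress ferritin heavy chain and to raise IREB2, and Tfrc is a described MYC target.

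The hairpins through which the members' messages are controlled were read from the GENCODE M21 transcripts (GRCm38), and they show where this element lies in each message. The search was for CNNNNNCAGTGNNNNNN on the transcript strand, where the 5 bases after the first C pair with the last 5 bases and G may pair with T. Capitals mark the bulged C and the 6 bases of the loop, and each line gives 30 bases, 5′ to 3′.
Fth1 5′ UTR: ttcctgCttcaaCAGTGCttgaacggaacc
Ftl1 5′ UTR: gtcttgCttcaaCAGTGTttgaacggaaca
Tfrc 3′ UTR 1: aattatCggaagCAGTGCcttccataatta
Tfrc 3′ UTR 2: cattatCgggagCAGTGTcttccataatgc
Tfrc 3′ UTR 3: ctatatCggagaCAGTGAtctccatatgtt
Tfrc 3′ UTR 4: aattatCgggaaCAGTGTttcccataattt
Slc40a1 5′ UTR: caacttCagctaCAGTGTtagctaagtttg
Fth1 and Ftl1 share the same stem, and the match lies at chr19:9982732-9982761 on the plus strand for Fth1 and at chr7:45459778-45459807 on the minus strand for Ftl1. The 4 Tfrc matches lie on the plus strand of chromosome 16, the first at chr16:32631219-32631248, the second at chr16:32631598-32631627, the third at chr16:32631663-32631692 and the last at chr16:32631710-32631739. The second holds 1 G to T pair in its stem. Slc40a1, which encodes the iron exporter ferroportin and is no member, is shown because it carries the same kind of hairpin at chr1:45925464-45925493 on the minus strand. Such a match was found in 3 of the 7 members, in 4 of 93 other genes of the iron lists (Slc40a1, Alas2, Bola3 and Keap1) and in 1.34% of 21877 genes with a coding transcript. A match is a description of the letters, and none was found by this pattern in Hmox1, Ireb2, Aco1 or Ncoa4.

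The matrix held 160606727 counts in 6837 barcodes, and 6751 barcodes passed the limits of 500 genes or more and 15% mitochondrial counts or less. These cells had a median of 17178 counts and 3160 genes. All 20 macrophage markers listed for checking the label, such as Lyz2, Csf1r and Adgre1, stood at 10 CPM or more, where CPM is counts scaled to a total of 1000000. None of the 16 fibroblast markers did, and 9 of those have no row. None of the 11 erythroid markers reached that level either, but only 5 of them have a row. Of 10 neutrophil markers, 6 with a row, 1 reached it, Prtn3. Of 8 monocyte markers, 7 with a row, 5 reached it, so the markers do not set the cells apart from monocytes. Since no cell type that should lack the members was found, the share of cells with a count that free RNA could give was not estimated.

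The ferritin messages were by far the most abundant members. Fth1 (chr19:9980598-9985098, plus strand) stood at 11564 CPM (11548 to 11581) and ranked 3 among all genes by CPM. Ftl1 (chr7:45457944-45459884, minus strand) stood at 5811 CPM (5799.6 to 5823) and ranked 20. Together they took 1.74% of all counts. The row of the pseudogene Ftl1-ps1, whose sequence is close to that of Ftl1, held 127 CPM, which is 2.19% of the Ftl1 level, and counts can be split between such copies. The heavy chain relative Fthl17f had 1 count, and the mitochondrial ferritin Ftmt has no row.

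The other members were lower by orders of magnitude. Hmox1 (chr8:75093621-75100589, plus strand) was at 62.9 CPM (61.7 to 64.1), and Tfrc (chr16:32608920-32632794, plus strand) at 33.8 CPM (32.9 to 34.7). Ncoa4 (chr14:32159865-32179855, plus strand) was at 15.6 CPM (15.02 to 16.3). Aco1 (chr4:40143081-40198338, plus strand) was at 12.1 CPM (11.6 to 12.7), and Ireb2 (chr9:54863789-54912530, plus strand) at 10.2 CPM (9.75 to 10.7). Divided by transcript length, the order was Fth1 at 12448 CPM per kb, Ftl1 at 6003, Hmox1 at 40.1, Tfrc at 6.92, Ncoa4 at 3.84, Aco1 at 3.16 and Ireb2 at 1.77 CPM per kb. No neighbours in that order had overlapping counting intervals. Whether the counts come from one end of the transcript is not stated, and then the plain CPM would be the fitting scale. On plain CPM the order was the same.

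**Figure D1:**
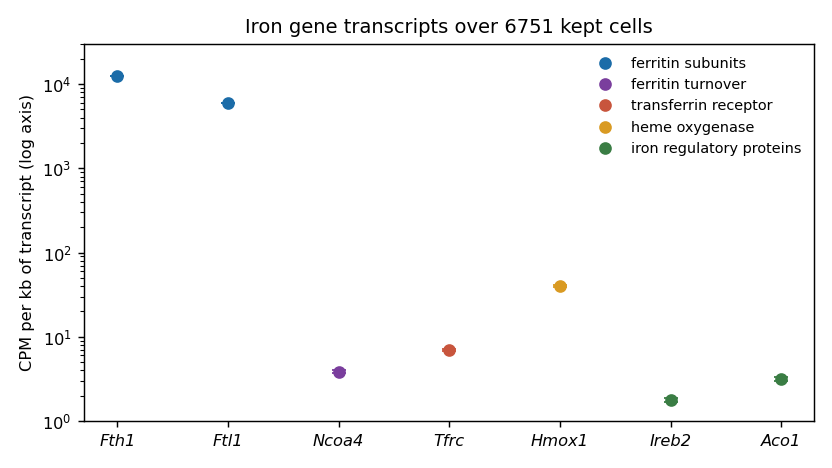
Level of each member over all kept cells as CPM per kb of transcript on a log axis, with 95% Poisson intervals, coloured by role. Fth1 at 12448 and Ftl1 at 6003 CPM per kb lie above Hmox1 at 40.1, and Ireb2 is lowest at 1.77.

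The genes around the members showed import, heme breakdown and autophagy transcripts, and little export. Of 13 import genes, 11 with a row, 5 reached 10 CPM. The highest beside Tfrc were the hemopexin receptor Lrp1 at 137 CPM, the transporter Slc39a14 at 28.4 CPM and the phagosomal transporter Slc11a1 at 18.0 CPM. The hemoglobin scavenger receptor Cd163 had 0.01 CPM and Tfr2 0.06 CPM. Of 5 export genes, 4 with a row, none reached 10 CPM: Slc40a1 was at 0.47 CPM, and hepcidin (Hamp), its hormone ligand, at 0.01 CPM. The biliverdin reductases Blvra at 134 CPM and Blvrb at 102 CPM, which act after heme oxygenase, were above Hmox1 in CPM, as was Hmox2 at 76.1 CPM. Fbxl5, the ubiquitin ligase subunit that marks Ireb2 protein for destruction when iron is ample, was at 17.3 CPM.

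Beyond these, 10 of 12 genes of ferritin turnover reached 10 CPM, led by the autophagosome proteins Gabarap at 388 CPM and Map1lc3b at 143 CPM and the cargo receptor Tax1bp1 at 61.8 CPM. The cytosolic iron chaperones Bola2, Pcbp1 and Pcbp2 stood at 903, 324 and 214 CPM. In the mitochondrial list 14 of 18 genes reached that level, among them Hspa9 at 240 CPM and Glrx5 at 194 CPM. In heme synthesis it was 5 of 9, among them Urod at 48.8 CPM and Alad at 41.8 CPM, and the erythroid enzyme Alas2 was at 0.06 CPM. Of 15 genes around NRF2 and BACH1, the regulators of Hmox1 transcription, 11 reached it, and Prdx1 at 1325 CPM, G6pdx at 83.3 CPM and Nfe2l2 at 77.0 CPM led. Gpx4, which reduces lipid peroxides, was at 514 CPM, ahead of Gch1 at 35.8 CPM and Lpcat3 at 32.8 CPM among 8 genes of lipid peroxide defence.

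Ferritin messages were counted in nearly every cell, and the other members in a minority. Fth1 had a count in 6747 of 6751 cells (99.9%) and Ftl1 in 6742 (99.9%). The share was 48.9% for Hmox1 (47.7 to 50.1), 34.7% for Tfrc (33.6 to 35.8), 24.7% for Ncoa4 (23.7 to 25.8), 21.4% for Aco1 (20.5 to 22.4) and 16.4% for Ireb2 (15.5 to 17.3). These shares moved with depth. In 10 bins of cells by total counts, with medians from 1362.5 to 67623 counts, the share with Hmox1 ran from 9.17% in the shallowest bin to 90.1% in the deepest. For Tfrc these ends were 3.99% and 79.9%, for Ncoa4 1.92% and 66.8%, for Aco1 1.48% and 59.7%, and for Ireb2 2.66% and 51.3%. A cell without a count of Hmox1, Tfrc, Ncoa4, Aco1 or Ireb2 is therefore not shown to lack the message.

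Each share was set beside the share that counting alone would give if every cell held the member at the common level of the library. The largest shortfall in any bin was 3.31 percentage points for Aco1, 8.11 points for Ncoa4 and 8.95 points for Ireb2. Aco1 and Ireb2 were below that share in 8 of the 10 bins, and Ncoa4 in all 10. Hmox1 and Tfrc fell further short, by up to 19.2 points for Hmox1 in the bin with a median of 20322 counts and up to 20.03 points for Tfrc at 35541 counts. The common level is that of all kept cells, so a shortfall in a bin also holds any lower level there. Ireb2, for one, was at 7.43 CPM in the bin of its largest shortfall. By the coefficient of variation given below, counts of Hmox1 and Tfrc were spread less evenly over cells of equal depth than those of Aco1. Thinned to 10000 counts in each of 4312 cells, the shares were 37.2% for Hmox1 against 46.1% at a common level, 22.8% for Tfrc against 26.7%, 13.1% for Ncoa4 against 13.4%, 10.7% for Aco1 against 10.9% and 8.56% for Ireb2 against 9.13%. Thinned to 1900 counts in each of 6085 cells, the shares were 10.1% for Hmox1, 5.998% for Tfrc, 2.71% for Ncoa4, 2.27% for Aco1 and 1.91% for Ireb2.

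**Figure D2:**
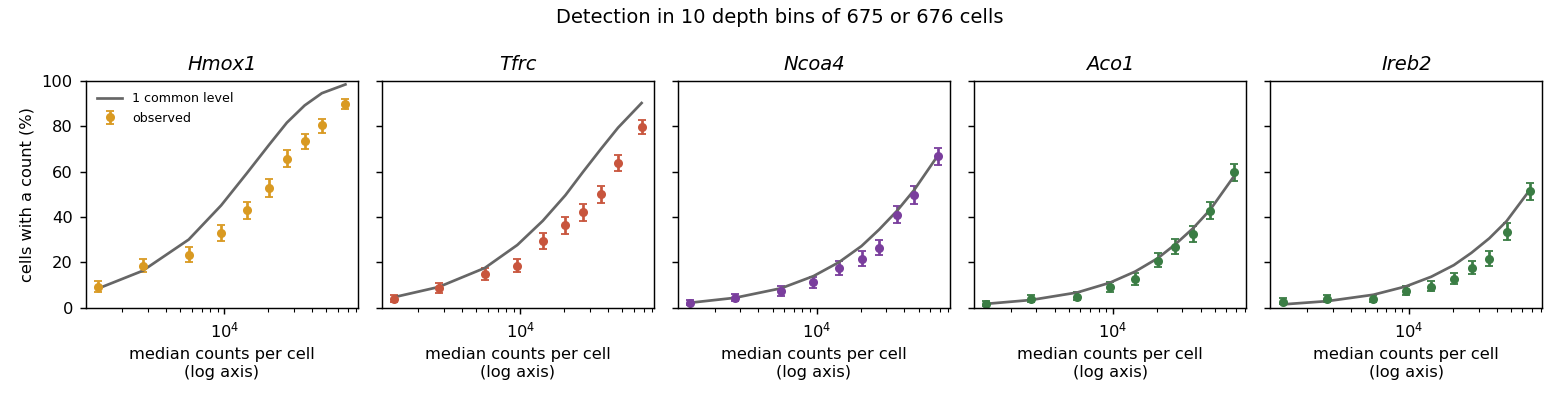
Share of cells with a count of each of the 5 lower members in 10 depth bins (points, with exact binomial intervals) against the median counts per cell on a log axis. The grey line is the share expected if all cells held the gene at 1 level, and Hmox1 and Tfrc lie below it by up to 19.2 and 20.03 points.

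The levels themselves were steadier than the shares. From the third to the tenth bin Fth1 stayed between 10868 and 11885 CPM, whereas the shallowest bin had 13856 CPM. Ftl1 ran from 5107 to 5961 CPM over the same bins and had 6719 CPM in the shallowest. Tfrc was lowest in the fourth bin at 24.6 CPM and highest in the deepest at 40.3 CPM. Hmox1 was highest in the second bin at 97.0 CPM (83.5 to 112) and lowest in the fourth at 56.7 CPM (51.0 to 62.8). Ireb2 was at 24.4 CPM in the shallowest bin, on 18 cells with a count, and between 7.15 and 13.8 CPM from the third bin on.

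At equal depth the ferritin messages varied more from cell to cell than most of the 149 genes at 1000 CPM or more, most of which are less abundant. Per 10000 counts, the 4312 cells held from 4 to 482 Fth1 counts, with a median of 104 and a middle 50% from 74 to 145. For Ftl1 the range was 1 to 289, the median 53 and the middle 50% from 39 to 71. The variance was 27.7 times the mean for Fth1 and 12.5 times for Ftl1. After removal of counting variance, the coefficient of variation was 0.48 for Fth1 and 0.45 for Ftl1, against a median of 0.24 over 149 genes at 1000 CPM or more. In that group 12 genes, Fth1 included, were at or above the Fth1 value, and 17 at or above that of Ftl1. For Hmox1 the variance was 2.13 times the mean, with 50 cells (1.16%) of 5 or more counts holding 12.6% of its counts and a maximum of 21. For Tfrc it was 1.53 times, with 13 such cells and a maximum of 8. Ireb2, Aco1 and Ncoa4 were at 1.14, 1.06 and 1.06 times, and no cell had more than 3 counts of any of them. At such low means the variance over the mean lies near 1 and does not rank these members against ferritin. The coefficient of variation after removal of counting variance was 1.35 for Hmox1, 1.30 for Tfrc and 1.20 for Ireb2. It was 0.70 for Aco1 and 0.64 for Ncoa4, so all 5 were above both ferritin values. The median over 6656 genes at 10 CPM or more was 0.60.

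Heavy chain exceeded light chain in nearly every cell, and the pair moved together. The pooled ratio of Fth1 to Ftl1 counts was 1.99. Over single cells at equal depth its median was 1.98, and 90% of cells lay between 1.09 and 3.52. More Fth1 than Ftl1 was counted in 4183 of 4312 cells (97.0%). The SD of the log2 ratio over cells was 0.51, where counting error alone gave 0.26, and the SD of each gene on that scale was 0.69 for Fth1 and 0.66 for Ftl1.

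Across cells at equal depth, r of log2(count + 1) was 0.716 for Fth1 and Ftl1. All correlations here are descriptions over cells of 1 library, which share the fixed total of 10000 counts, and carry no p. In the 7 clusters with at least 100 such cells it ran from 0.560 to 0.761, with a mean of 0.661. The next pairs were Ftl1 with Hmox1 at 0.316 and Fth1 with Hmox1 at 0.285. Inside clusters their means were 0.202 and 0.177, and without cluster 4 the values were 0.208 and 0.201. Of the 21 pairs of members, 17 lay within 0.1 of 0, and Tfrc had r of 0.08 with Fth1, 0.10 with Ftl1 and 0.08 with Hmox1. With means of 0.096 to 0.31 counts per cell, the values for Tfrc, Ncoa4, Aco1 and Ireb2 are too sparse for a weak r to be read.

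The genes most like the ferritin pair were led by the same pair of lysosomal proteases. Among 6649 other genes at 10 CPM or more, Fth1 had its highest r with the lysosomal proteases Ctsb (0.571) and Ctsd (0.560), the fatty acid binding protein Fabp5 (0.521), the endolysosomal glycoprotein Gpnmb (0.504) and the tetraspanin Cd63 (0.501). For Ftl1 the list was Ctsb (0.629), Ctsd (0.567), Gpnmb (0.539), Cd63 (0.503) and the cathepsin inhibitor Cstb (0.501). Both sets kept means inside clusters of 0.384 to 0.509. The median r over the 6649 genes was 0.01 for Fth1 and 0.02 for Ftl1. Most of these genes are sparser than those named, which stood at 525 to 1327 CPM, and sparse counts lower r. At the other end Fth1 had its lowest r with the granule protease Prtn3 (-0.387), the ribosomal protein gene Rpl36 (-0.351) and the chromatin gene Jarid2 (-0.336). Ftl1 had its lowest with Rpl36 (-0.485), Rps21 (-0.441) and Rps12 (-0.432), and 79 of 90 ribosomal protein genes lay below 0 with it. For Fth1 that count was 72 of 90. It was 85 for Tfrc, 86 for Hmox1, 81 for Ireb2, 74 for Aco1 and 79 for Ncoa4, so it is not particular to ferritin.

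Hmox1 was likewise most alike to Ctsb (0.338), Ctsd (0.302), the secreted phosphoprotein Spp1 (0.292), Timp2 (0.282) and the complement gene C1qb (0.282), and inside clusters these means were 0.135 to 0.201. Tfrc had its highest r with the mannose receptor Mrc1 (0.191), C1qa (0.156), C1qc (0.153), Pmp22 (0.153) and the endocytic adaptor Dab2 (0.149). Inside clusters these means were 0.099 to 0.140, too weak to be read in counts as sparse as those of Tfrc. For Ireb2 the highest was the nuclear noncoding RNA Malat1 at 0.140, with a mean inside clusters of 0.002, followed by Smc4 (0.135), Zeb2 (0.131), Fgfr2 (0.121) and Gm26917 (0.119). For Ncoa4 the top was Memo1 (0.103), then Ms4a6c (0.087), Ctsl (0.086), Cd36 (0.085) and Dnaja2 (0.084). For Aco1 it was Stard4 (0.066), then Slk (0.062), Snx9 (0.061), Vim (0.060) and Trpm7 (0.060). The 99th percentile over all genes was 0.06 for Ncoa4 and 0.05 for Aco1, and r this weak in such sparse counts gives no finding.

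**Figure D3:**
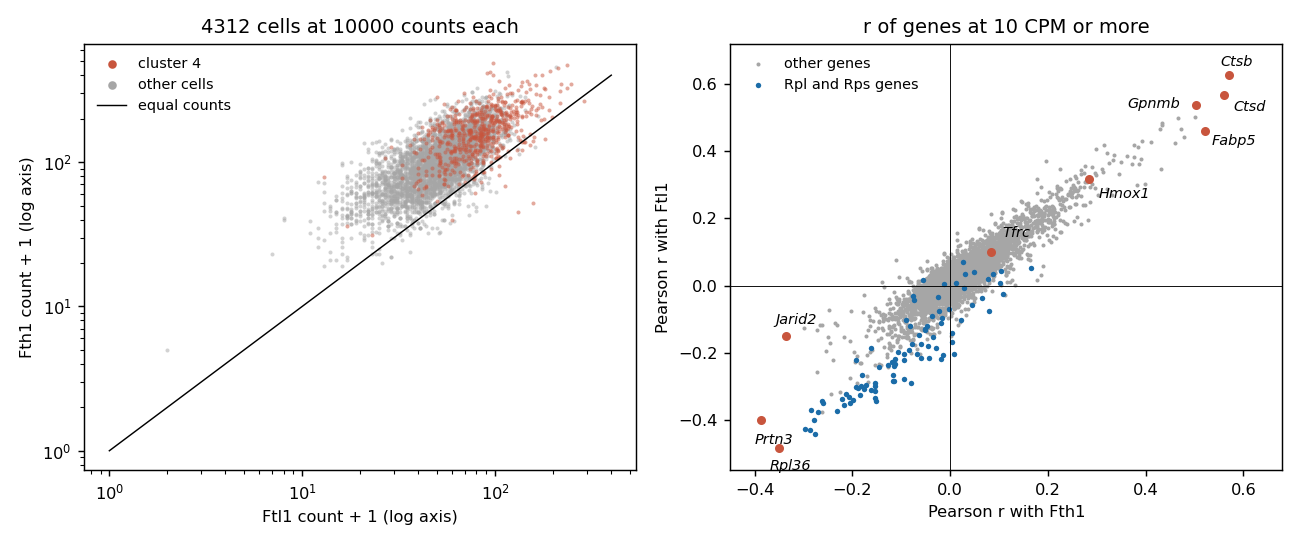
Left, Fth1 against Ftl1 counts + 1 in 4312 cells at 10000 counts each on log axes, with cluster 4 in red and other cells in grey. Right, Pearson r of each gene at 10 CPM or more with Fth1 (x) and Ftl1 (y), where Ctsb and Ctsd lie at the upper end and most ribosomal protein genes (blue) below 0 with Ftl1.

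Of the iron lists, Prdx1, a peroxidase, was the gene most alike to Fth1 (0.472) and Ftl1 (0.465), and Gabarap, an autophagosome protein, came next (0.345 and 0.333). Over the 9 measured genes of ferritin turnover the median r was 0.04 with Fth1 and 0.05 with Ftl1, so Gabarap stood above its list. Gabarap at 388 CPM was also the most abundant gene of that list, and Prdx1 was at 1325 CPM. Sparse counts lower r, so these ranks are not separate from abundance. Blvra, which acts downstream of heme oxygenase, had r of 0.245 with Fth1, and Blvrb had 0.174 with Hmox1. The iron chaperone Bola2 ran the other way, with -0.225 for Fth1 and -0.318 for Ftl1. Of the 20 macrophage markers 18 had r above 0 with Fth1, up to 0.429 for Cd68, with a median of 0.22. Of 5 monocyte markers none had, and the lowest was Ly6c2 at -0.273.

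Members were next compared between 9 clusters of cells, found by Leiden clustering without the members and all other listed genes. A value was called when it lay past 2-fold, as the log2 ratio of the CPM in a cluster over that in all other cells (pseudocount 1 CPM). Of 63 values, 7 members in 9 clusters, 3 were called higher and 9 lower, and 5 of these 12 were in cluster 9 with 24 cells. Over all tested genes and clusters 14.7% of values passed 2-fold, and 29.5% passed 1.5-fold, as 24 of the 63 did. Of the 9386 values past 2-fold over all genes, 5280 were in cluster 9. The tested genes also include those that made the clusters, from which the members were left out. The pooled share is therefore only a rough background for the members. Neither cluster 2 nor cluster 3 had a member past 2-fold, where 1.14% and 0.806% of genes were.

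Cluster 4 (900 cells) had the highest heme oxygenase and the most ferritin message of the deeply counted clusters. It is led by the interferon-induced genes Ifit3 and Rsad2, the macrophage genes Ms4a7 and Folr2 and the chemokine Ccl12. Hmox1 was at 150 CPM (145 to 156) in cluster 4 and 49.6 CPM in other cells, a log2 ratio of 1.58, the only member past 2-fold where 6.47% of genes were past it, and 3.46% past it in the higher direction. At equal depth 64.1% of its 619 cells had an Hmox1 count, and 36 of the 50 cells with 5 or more Hmox1 counts lay in it. Fth1 was at 16530 CPM in cluster 4 and 10807 CPM in other cells (log2 0.61), and Ftl1 at 8654 CPM and 5378 CPM (log2 0.69). Tfrc was at 49.4 CPM in cluster 4 and 31.4 CPM in other cells (log2 0.64), but the best matching cluster at resolution 1.0 (Jaccard index 0.53) had a log2 ratio of -0.03, so the higher Tfrc depended on where the cluster was drawn. Per 10000 counts the median of Fth1 was 160 over its cells and 72 to 111 in the other clusters with over 100 such cells, although the ranges of single cells overlap. The lysosomal protease Ctsb, at 2153 CPM in cluster 4 and 672 CPM in other cells, moved with these genes, and its part in the result was not tested.

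Other iron genes differed in cluster 4 as well. Among 62 measured genes of the iron lists outside the members, 2 were past 2-fold higher and 1 lower, and the median log2 ratio was -0.07, against -0.13 over all tested genes. The genes above were Slc11a1, the phagosomal iron transporter, at 35.5 CPM in cluster 4 and 15.4 CPM in other cells, and Blvrb at 186 CPM and 89.3 CPM. The lower gene was the transporter Slc39a14, at 14.6 CPM in cluster 4 and 30.5 CPM in other cells. The exporter Slc40a1 had 24 counts in cluster 4, or 1.13 CPM (0.72 to 1.68), and 0.37 CPM in other cells (0.27 to 0.48).

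Ireb2 was highest in cluster 7 (547 cells), which is led by the nuclear noncoding RNAs Malat1, Kcnq1ot1 and Neat1 with Gm2245 and Mir99ahg. It stood at 25.3 CPM (23.2 to 27.5) in cluster 7 and 7.95 CPM (7.49 to 8.43) in other cells, a log2 ratio of 1.55. With a pseudocount of 10 CPM, about the level of the gene, the ratio was 0.98, just inside 2-fold. At equal depth 21.5% of the 405 cells of cluster 7 had an Ireb2 count, and in the other clusters with over 100 such cells the share was 4.13% to 10.01%. No other member was past 2-fold there, and 15.8% of genes were, 15.3% in the higher direction, with a median log2 ratio of 0.33 over all tested genes. Malat1, a nuclear RNA, was at 1322 CPM in cluster 7 and 35.0 CPM in other cells, and its part in the Ireb2 value was not tested. Fbxl5, the partner that removes Ireb2 protein, had a log2 ratio of 0.98 there.

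Ireb2 was lowest in clusters 1 and 6. In cluster 1 (1646 cells, led by Rpl39l, Bc1, Prtn3, 1700034P13Rik and Cfap44) it was at 3.95 CPM against 10.9 CPM in other cells, a log2 ratio of -1.27. Tfrc was also called there, at 16.5 CPM (14.5 to 18.7) in cluster 1 and 35.6 CPM in other cells (log2 -1.06), where 8.51% of genes were past 2-fold, 8.50% in the lower direction, and the median ratio of all tested genes was -0.32. The Tfrc value was inside 2-fold at -0.94 without ribosomal protein, mitochondrial and ribosomal RNA locus rows in the denominator, and at -0.78 with a pseudocount of 10 CPM. Cluster 1 is shallow, with a median of 5096.5 counts per cell, but its 542 cells at equal depth also gave 16.8 CPM of Tfrc and 4.61 CPM of Ireb2. In cluster 6 (663 cells, led by the histone genes Hist1h4h, Hist1h4c, Hist1h4d, Hist1h4a and Hist1h4k) Ireb2 was at 4.27 CPM against 10.8 CPM in other cells (log2 -1.16), with 8.79% of genes past 2-fold, 8.29% in the lower direction, and a median of -0.37. With a pseudocount of 10 CPM the Ireb2 ratios were -0.58 in cluster 1 and -0.54 in cluster 6, so both calls end there. Both clusters also had the highest ratio of Fth1 to Ftl1 counts, 2.30 (2.28 to 2.32) in cluster 1 and 2.33 (2.30 to 2.35) in cluster 6.

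Cluster 5 (774 cells, led by Camk1d, Tmtc2, D130009I18Rik, Gm48099 and Jarid2) had the lowest Fth1 and Hmox1 among clusters of over 100 cells. Fth1 was at 7818 CPM in cluster 5 and 11914 CPM in other cells (log2 -0.61), and the Fth1 to Ftl1 ratio was 1.68. Ftl1 was at 4662 CPM in cluster 5 and 5919 CPM in other cells, and it was lower still in clusters 1 and 6, at 4413 and 4475 CPM. Hmox1 was at 31.7 CPM (28.8 to 34.9) in cluster 5 and 65.8 CPM in other cells, a log2 ratio of -1.03, the only member past 2-fold where 1.55% of genes were, 1.31% in the lower direction. Gm42418, a transcript over a ribosomal RNA locus, took 107518 CPM in cluster 5 and 51892 CPM in other cells. With ribosomal protein, mitochondrial and ribosomal RNA locus rows left out of the denominator, the Hmox1 ratio was -0.95, inside 2-fold.

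Clusters 8 and 9 are small or shallow. Cluster 8 (271 cells, median 2159 counts, led by Gm47350 and Cdkl3) had 16484 CPM of Fth1 against 11538 CPM in other cells (log2 0.51). Ctsb was at 291 CPM in cluster 8 and 871 CPM in other cells, so high Fth1 came without high Ctsb there. Tfrc was called lower in cluster 8, with 10 counts or 11.5 CPM (5.50 to 21.1) against 34.0 CPM in other cells (log2 -1.49), where 14.2% of genes were past 2-fold. Cluster 9 (24 cells, led by Gm26917 and Lamb3) gave 472113 CPM to Gm42418, and 67.0% of genes were past 2-fold, 22.6% higher and 44.5% lower. In it Fth1 was at 1155 CPM (969 to 1366) and Ftl1 at 747 CPM (599 to 921), against 11572 and 5815 CPM in other cells. Tfrc, with 9 counts, was called higher, and Hmox1, with 1 count, lower. Aco1 had 0 counts, which allows up to 31.3 CPM, above the 12.1 CPM of other cells, so its call rests on the pseudocount.

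**Figure D4:**
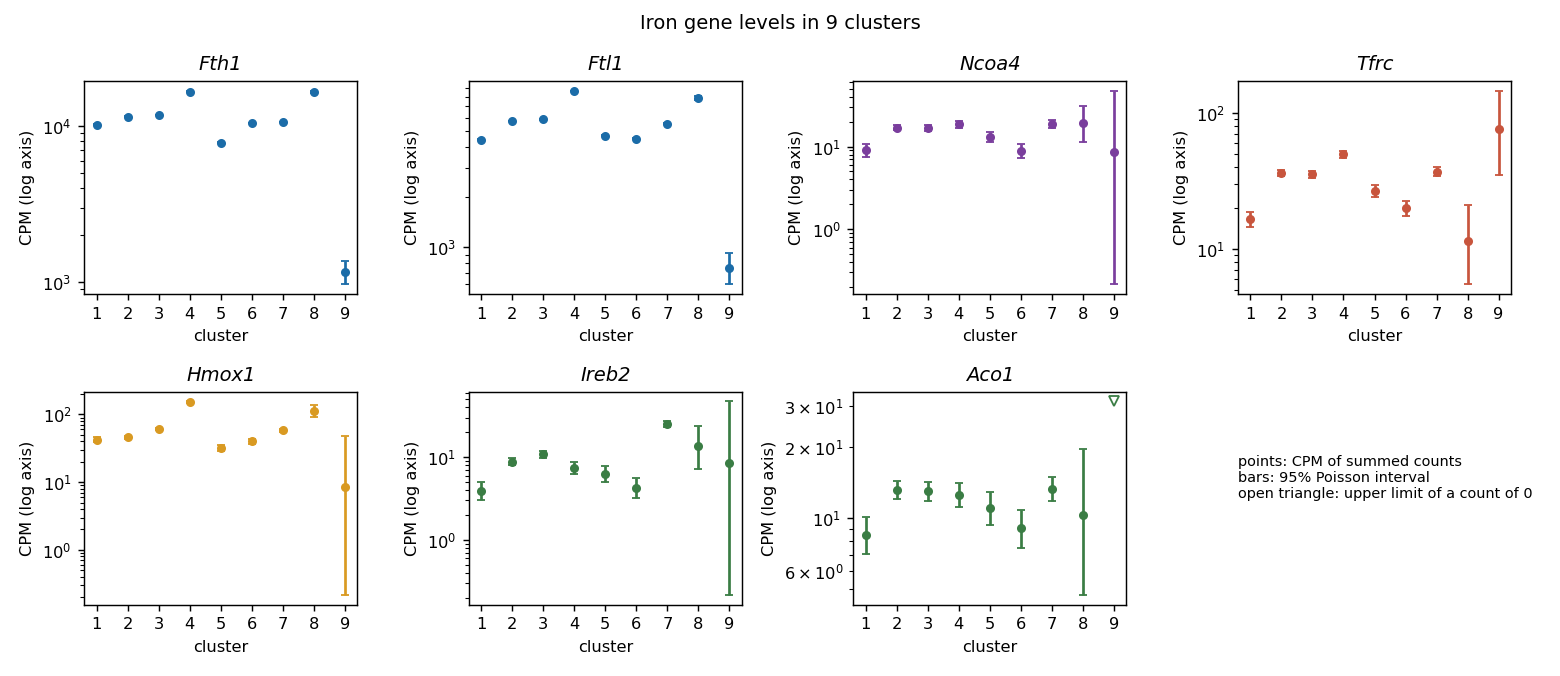
CPM of each member in the 9 clusters on log axes, with 95% Poisson intervals. Hmox1 peaks in cluster 4 at 150 CPM, Ireb2 in cluster 7 at 25.3 CPM, and Fth1 is lowest in cluster 5 at 7818 CPM outside the 24 cells of cluster 9.

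Since c-Myc is the factor that induced these cells, members were compared between cells with and without a Myc count at equal depth. No member lay past 2-fold, and 2 of 6704 genes (0.0298%) did, 1 higher and 1 lower. Myc itself is among the tested genes and is higher by the way the groups were made. A cell without a Myc count is not shown to lack the Myc message, because the count depends on depth. Thinned to 1900 counts, 441 cells had a Myc count and 5644 had none, and unthinned these were 2762 and 3989 cells. Values inside 2-fold thus do not show that a member is unrelated to the Myc level. Fth1 was at 10618 CPM in 1198 cells with a Myc count and 11819 CPM in 3114 cells without (log2 -0.15), and Ftl1 at 5359 CPM and 5845 CPM (log2 -0.13). Ireb2 was at 11.7 CPM (9.83 to 13.8) in cells with a Myc count and 8.77 CPM (7.76 to 9.87) in cells without, a log2 ratio of 0.38 on 140 and 273 counts. Hmox1 was at 54.8 CPM (50.6 to 59.1) with a Myc count and 64.5 CPM (61.8 to 67.4) without. Tfrc was at 32.2 CPM (29.1 to 35.6) with and 30.6 CPM (28.7 to 32.6) without, and its intervals overlap, as do those of Aco1 and Ncoa4. With cells thinned to 1900 counts the Ireb2 ratio was -0.09 and that of Hmox1 0.13. These rest on 8 and 58 counts in 441 cells with a Myc count. The intervals overlap for both genes there, so that depth cannot decide the direction. Without ribosomal protein, mitochondrial and ribosomal RNA locus rows the ratios were 0.24 and -0.31. Unthinned, where a Myc count depends on depth, they were 0.37 and -0.31. Leaving out cluster 4 gave 0.38 and -0.20, and leaving out cluster 7 gave 0.42 and -0.21. The count does not separate Myc of the cell's own gene from that of an introduced copy.

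Transferrin receptor is known for its link to proliferation, and members were followed over 4 bins of 1078 cells by their summed counts of 40 genes of S, G2 and M phase. From the lowest to the highest bin Tfrc was at 28.0, 29.9, 32.2 and 34.1 CPM, and the intervals of the end bins overlap (24.9 to 31.4 and 30.7 to 37.8 CPM). With bins from the S phase list alone Tfrc was at 25.5, 27.5, 31.5 and 39.7 CPM, and the end intervals (22.6 to 28.7 and 36.0 to 43.6 CPM) lie apart. With the G2 and M phase list alone it was at 32.2, 29.96, 32.2 and 29.9 CPM, with no such gradient. Ireb2 was at 5.84, 7.70, 8.63 and 16.1 CPM, a log2 ratio of 1.32 for the highest over the lowest bin, the only member past 2-fold where 10.2% of genes were, 9.57% in the higher direction. The tested genes include the 40 that made the bins. Over bins from the G2 and M phase list alone Ireb2 was at 5.75, 7.98, 8.35 and 16.2 CPM. Over bins from the S phase list alone it was at 7.33, 12.3, 10.2 and 8.44 CPM, where the log2 ratio of the end bins was 0.18. Hmox1 was at 87.0, 54.7, 52.0 and 53.5 CPM, so it stood apart in the lowest bin. Fth1 was at 12423, 10977, 10892 and 11649 CPM and Ftl1 at 6462, 5133, 5389 and 5856 CPM.

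These gradients moved with the make-up of the bins. Cluster 7 held 26.8% of the highest bin and 0.19% of the lowest, and cluster 4 held 4.17% of the highest and 36.4% of the lowest. Cluster 2 held 44.7% of the highest bin and 0.46% of the lowest, and cluster 1 held 1.76% and 22.1%. Neither cluster 1 nor cluster 2 was left out, and their part in the gradients was not tested. Bins without cluster 4 or cluster 7 therefore still differ in make-up. With cluster 7 left out, Ireb2 was at 5.67, 7.58, 7.91 and 10.3 CPM, and the end bins differed by 0.76 in log2. With cluster 4 left out, Hmox1 was at 47.4, 44.8, 45.2 and 50.4 CPM, and the higher value of the lowest bin was gone. Without cluster 4, Tfrc was at 20.8, 27.0, 29.8 and 33.7 CPM (log2 0.67), and the intervals of the end bins no longer overlap (17.6 to 24.6 and 30.2 to 37.4 CPM). Fth1 was then at 9886, 10215, 10454 and 11455 CPM, and the log2 ratio of the end bins, -0.09 with all cells, was 0.21. With ribosomal protein, mitochondrial and ribosomal RNA locus rows left out, Tfrc in all cells was at 51.5, 52.8, 50.4 and 49.7 CPM, with no rise over the bins.

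**Figure D5:**
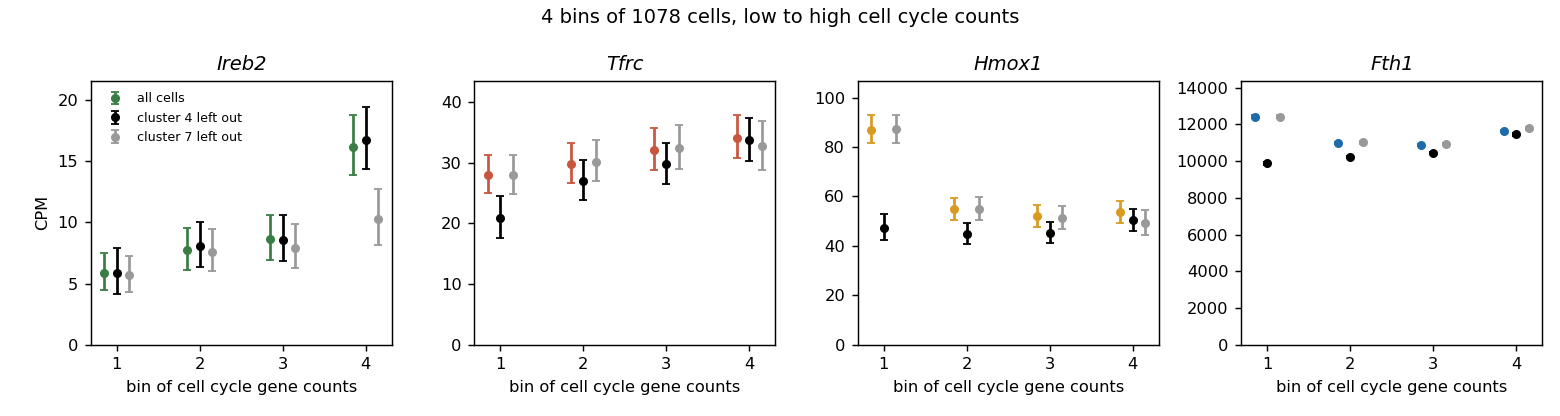
CPM of Ireb2, Tfrc, Hmox1 and Fth1 in 4 bins of 1078 cells from low to high cell cycle counts, with 95% Poisson intervals, for all cells (coloured), without cluster 4 (black) and without cluster 7 (light grey). Ireb2 in the highest bin is at 16.1 CPM with all cells and 10.3 CPM without cluster 7, and Hmox1 in the lowest bin at 87.0 CPM with all cells and 47.4 CPM without cluster 4.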

How the data were processed

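Per the file headers, PISA version 0.12 wrote the deposited matrix of whole-number counts per gene and barcode. Cell Ranger and mm10 are named with no role in the submitters' processing notes. The sources used here do not state the aligner, the strand setting or whether molecules or reads were counted, and reads would make the intervals too narrow. The members and gene lists were chosen with earlier results of these data known. Levels are CPM of pooled counts with exact Poisson intervals, and shares of cells have Clopper-Pearson intervals. Cells were thinned without replacement to 1900 or 10000 counts. Clusters came from scanpy 1.11.5 (2000 variable genes, 30 components, 15 neighbours, Leiden with igraph 0.11.9 at resolution 0.5), without the 192 listed genes that have a row. Clusters are given by number. Doublets were not called and were left in. Transcript lengths are of the GENCODE M21 principal isoform with the best support, and 19659 symbols are in M21. The named genes are the members, the 5 most alike to each (and the 3 least alike to Fth1 and Ftl1), the 3 highest of each iron list with defining genes under 1 CPM, and 5 leading genes of each cluster. Some genes this rule picks are not reported here. Chosen for naming with their values known were those past 2-fold in cluster 4, Cd68, Fbxl5 and Ly6c2, Ctsb, Gm42418 and Malat1 as values beside cluster results, and the iron list genes with a hairpin. The ratio and correlation steps were tested on simulated data. With 1 sample no p-value was computed.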

Additional observations from a re-analysis of the deposited data

Results flagged for a closer look

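The 86 barcodes outside the limits on genes and mitochondrial counts were used in no comparison, and 6 of the 7 members had more counts in them than the 3 that a count of 0 allows. In these barcodes, with 243219 counts in all, Fth1 stood at 1809 CPM (1644 to 1986) and Ftl1 at 1155 CPM (1024 to 1299), against 11564 and 5811 CPM in the kept cells. Ireb2 was at 24.7 CPM on 6 counts, against 10.2 CPM in the kept cells, and its interval (9.05 to 53.7 CPM) includes that value. Tfrc was at 24.7 CPM, Hmox1 at 20.6 CPM and Ncoa4 at 16.4 CPM, on 6, 5 and 4 counts. The Hmox1 interval (6.67 to 48.0 CPM) lies below the 62.9 CPM of the kept cells.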

How the results depend on the processing

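All 7 members stayed at 10 CPM or more with all barcodes, stricter cell limits, another denominator, a mean over cells and copies added, but Ireb2 was at 9.58 CPM in cells thinned to 10000 counts. The denominator moved them most: without ribosomal protein, mitochondrial and ribosomal RNA locus rows, which took 39.5% of counts, Fth1 was at 19125 CPM and Ftl1 at 9611 CPM, and the other members were higher in proportion. The r of Fth1 and Ftl1 was 0.566 at 1900 counts, 0.648 without those rows and 0.661 as the mean inside clusters. Pairs with r of 0.2 or more numbered 3, but 1 at 1900 counts and 2 as means inside clusters. Of the 12 values past 2-fold between clusters, 6 were with a pseudocount of 10 CPM, which ended Tfrc in clusters 1 and 9, Hmox1 in cluster 5 and Ireb2 in clusters 1, 6 and 7. It was 10 without those rows and 8 at resolution 1.0, and 24 values passed 1.5-fold. At resolution 1.0 the sign of Tfrc in cluster 9 turned to -0.35, but the best match there shares few cells with cluster 9 (Jaccard index 0.04). No member passed 2-fold by Myc count in any of the 6 alternatives. By cell cycle genes 0 did with the S phase list alone. With cluster 7 left out 0 did among Ireb2, Tfrc, Fth1 and Hmox1, and the other members were not followed there. Leaving out cluster 7 or cluster 4 was chosen after seeing the data. Without the ribosomal and related rows Ireb2 dropped to 0.90 and Hmox1 passed at -1.03. No paired analysis was possible because there is 1 matrix and no replicate. Depth limits Ireb2, Aco1, Ncoa4, Tfrc and Hmox1, for each of which most cells have no count.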
